A study of Mus musculus with 6 samples.

Results

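Fc receptor genes were examined in RNAseq of bone marrow (BM)-derived monocytic myeloid-derived suppressor cells (M-MDSCs), which are immature monocyte-like cells that restrain T cell responses. The 8 genes were found by their symbols among the 34745 genes of the count table. They were the activating IgG receptors Fcgr1, Fcgr3 and Fcgr4, the inhibitory IgG receptor Fcgr2b, the signalling adaptors Fcer1g and Tyrobp, the neonatal receptor Fcgrt and the inhibitory receptor Pirb. All 8 had enough counts to be tested, as did 12537 genes in all. They were picked by symbol for their known roles, with earlier results of these data known.

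BM cells were cultured with GM-CSF and IL-6 and sorted on CD11b, Ly6C and Ly6G before RNA extraction. The WT group held 3 libraries from C57BL/6 mice with no engineered allele, which were purchased, so they were not described as littermates. The mTOR-/- group held 3 libraries from Lyz-mTOR mice on the same labelled strain, in which Cre under the lysozyme promoter removes a floxed mTOR allele in myeloid cells. WT animals carried neither Cre nor the floxed allele, so the effects of Cre, of the floxed allele and of mTOR loss cannot be told apart. Cells without lysozyme expression in these animals keep mTOR. Age was not given. The methods give an n of 3 for the mice of each genotype but do not tie a library to an animal or culture, so p-values measure the spread between these libraries, which may be technical.

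The libraries held 12317507 to 12903191 counts in the mTOR-/- group and 14066578 to 14768126 in WT. The limit of detection was taken as 3 counts, which amounted to 0.203 to 0.244 CPM (counts scaled to the same total in every library). Those values used library totals alone, while the CPM of genes below were TMM-normalized, with a further scaling factor for each library. Counts of Mtor were 883, 983 and 908 in the libraries labelled mTOR-/- and 980, 875 and 929 in WT, with a log2 fold change of 0.15 (SE 0.11) and an adjusted p of 0.442 in edgeR. The count covers the whole gene and the floxed exons were not given, so it does not check the deletion. The study itself reports verifying mTOR depletion in MDSCs, in a supplementary figure. Lyz2, the lysozyme gene that drives the Cre, was lower in the mTOR-/- libraries by a log2 fold change of -1.68 (edgeR adjusted p = 0.00255). Libraries correlated with each other at 0.978 to 0.981 within WT and at 0.952 to 0.973 within mTOR-/-, where replicate 3 stood apart.

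Fc receptors bind the constant part of antibodies and let a cell respond to antigen that antibody has coated. Activating receptors carry little signalling sequence of their own and work through Fcer1g, the common gamma chain, whose ITAM motif is phosphorylated by Src-family kinases and then recruits Syk. Fcgr2b carries an ITIM motif in its own tail, which recruits the phosphatase SHIP1 and restrains the activating receptors beside it. Monocytes and macrophages usually show both kinds at once, and the balance between them sets the threshold for phagocytosis and cytokine release. Fcgrt works differently: it binds IgG and albumin inside acidic endosomes and returns them to the surface.

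The sequences of Fcgr2b and Fcgr3 are shown first, because they bear on how the reads of these receptors could be counted. The 2 genes lie on the minus strand of chromosome 1, and their coding sequences share an identical run of 129 bases that spans the end of exon 3 (102 bases) and the start of exon 4 (27 bases) of each, in the extracellular part. In GRCm38 the run covers chr1:170967980-170968081 and chr1:170966674-170966700 in Fcgr2b, and chr1:171057691-171057792 and chr1:171054167-171054193 in Fcgr3. Capitals mark the identical run and lower case the 15 coding bases on each side.
Fcgr2b: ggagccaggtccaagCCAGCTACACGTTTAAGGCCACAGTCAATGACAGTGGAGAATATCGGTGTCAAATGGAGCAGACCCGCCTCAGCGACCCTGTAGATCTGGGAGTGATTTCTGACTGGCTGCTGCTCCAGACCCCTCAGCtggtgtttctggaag
Fcgr3: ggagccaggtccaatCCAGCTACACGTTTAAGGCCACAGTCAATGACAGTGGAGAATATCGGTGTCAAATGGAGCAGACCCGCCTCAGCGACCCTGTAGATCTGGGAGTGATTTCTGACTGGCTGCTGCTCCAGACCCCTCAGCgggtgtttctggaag
The run was shorter than 150 bases, the length of 1 sequenced end. No stretch of 150 bases was therefore shared exactly by the transcripts of both genes. The printed flanks differ only at the bases next to the run, and nearly identical stretches were not compared. Fcgr2b and Fcgr3 were still also tested as a sum, which does not depend on how reads were split between them.

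On a per-length scale the members fell into 3 tiers. In FPKM as deposited, Tyrobp stood highest in each of the 6 libraries (515 to 742 FPKM) and its range met that of no other member. Fcer1g (133 to 187 FPKM), Fcgr3 (127 to 191 FPKM) and Fcgr2b (95.4 to 150 FPKM) followed with ranges that overlapped, so their order among themselves was not resolved beyond the spread. Pirb (6.57 to 13.3 FPKM) and Fcgr1 (4.09 to 6.88 FPKM) were below these in every library, and Fcgrt (0.736 to 4.44 FPKM) and Fcgr4 (1.08 to 2.59 FPKM) were at the bottom. Neighbours in that lower order overlapped too.

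**Figure D1:**
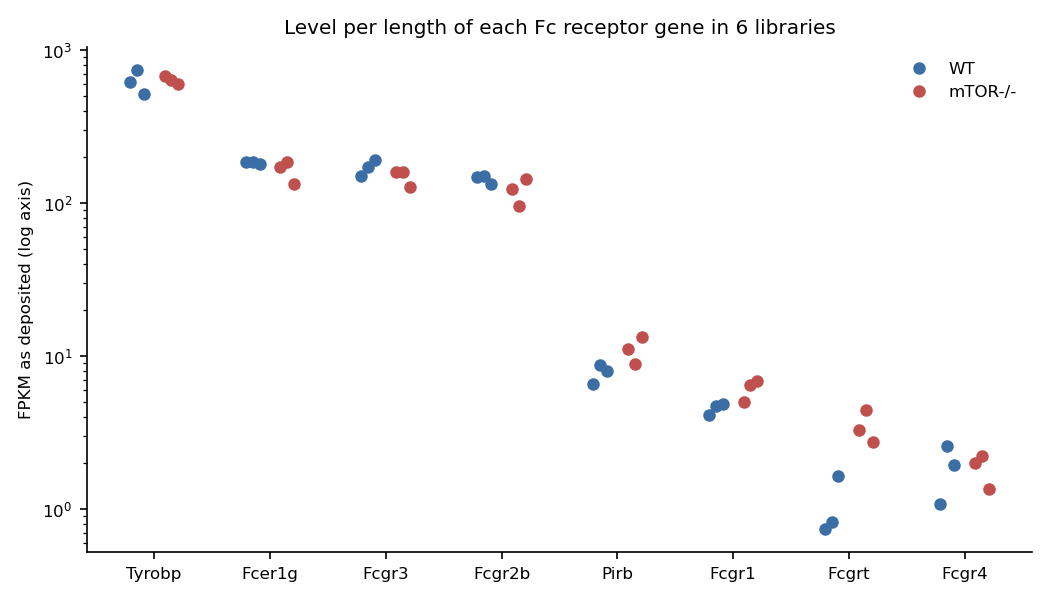
FPKM as deposited (log axis) of the 8 Fc receptor genes in 3 WT (blue) and 3 mTOR-/- (red) libraries, each point 1 library, ordered by the mean over all libraries. Tyrobp lies between 515 and 742 FPKM, the trio Fcer1g, Fcgr3 and Fcgr2b between 95.4 and 191, and the other members at 13.3 or below.

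The order of the middle tier depended on the length each gene was given. The deposited FPKM imply a length of 3829 bases for Fcgr3 and 1605 for Fcer1g, against 1347 and 683 for their longest coding transcripts. Scaled to those transcripts, Fcgr3 ranged from 361 to 543 on the FPKM scale and Fcer1g from 312 to 439, with Fcgr2b at 203 to 319 and Tyrobp at 487 to 701. Fcgr3 then met the range of Tyrobp. By its mean over the 6 libraries Fcgr2b came after Tyrobp, Fcer1g and Fcgr3 on both scales, although in mTOR-/- replicate 3 its deposited FPKM (144) was above those of Fcer1g (133) and Fcgr3 (127).

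No member passed the test at an adjusted p under 0.05 between the libraries labelled mTOR-/- and WT (edgeR quasi-likelihood test, Benjamini-Hochberg over all 12537 genes), where 4.04% of all tested genes passed it and 1.69% did so with a fold change of at least 2. Unadjusted p-values under 0.05 were found for 3 members, Fcgr1, Fcgrt and Pirb, each with a higher mean in mTOR-/-, where 21.2% of all tested genes had one. That of Fcgr1 was 0.0475 in edgeR and rose above 0.05 with DESeq2 (0.0618) and with the replicate block (0.0641). It also did so with no filter on low counts (0.0572) and with at least 10 counts in every library (0.0549). It stayed under 0.05 with the other normalizations in edgeR (0.0401 to 0.0493) and with limma on FPKM (0.0324 and 0.0349). With single libraries left out it was 0.0622 to 0.153, except without mTOR-/- replicate 1, where it stayed under 0.05. That of Pirb rose above 0.05 without mTOR-/- replicate 3 (0.0555) or WT replicate 1 (0.0646). With DESeq2, 1 member passed, Fcgrt, beside 9.12% of all tested genes. In TMM-normalized CPM the groups did not overlap for Fcgr1 and Fcgrt, which were higher in all 3 mTOR-/- libraries than in any WT library. No member was lower in that way. Over all tested genes 14.5% did not overlap with mTOR-/- higher and 13.9% with mTOR-/- lower. The median log2 fold change of the 8 members was -0.01, against 0.00 over all tested genes.

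**Figure D2:**
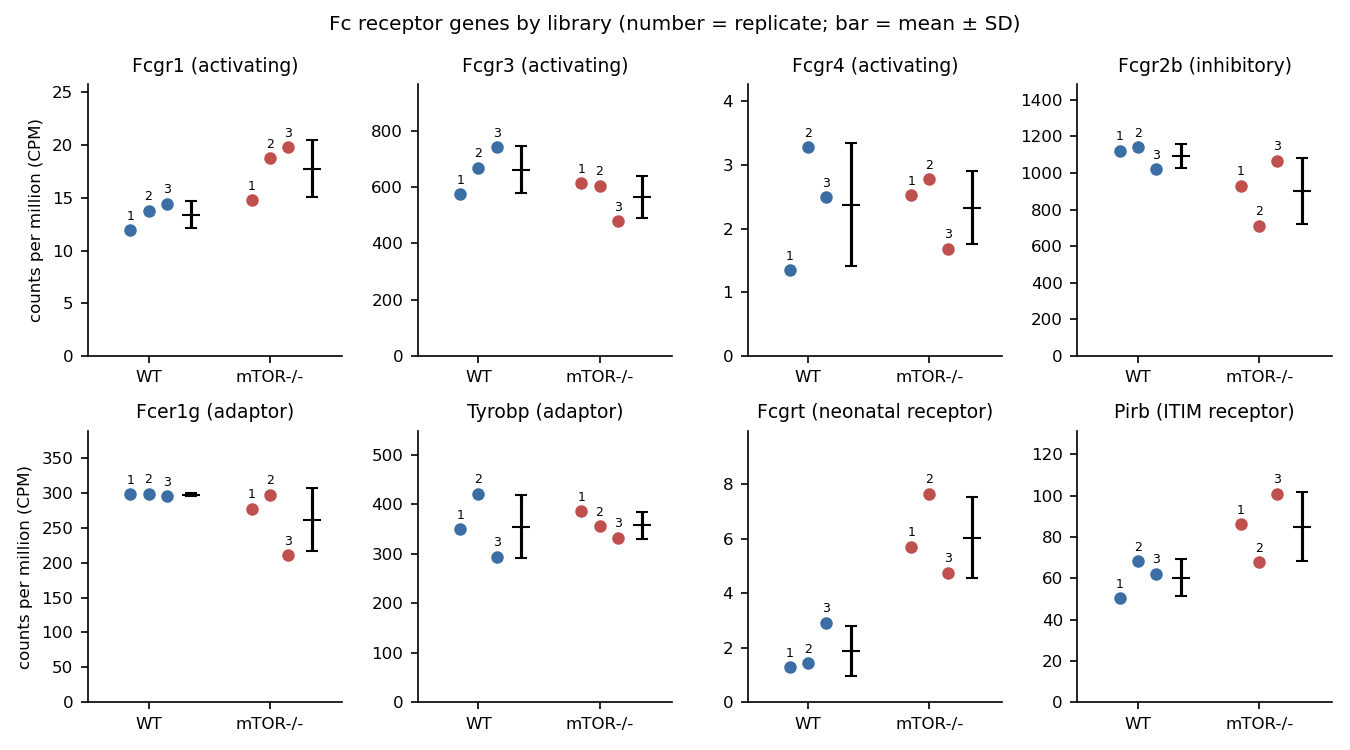
TMM-normalized CPM of each member in 3 WT (blue) and 3 mTOR-/- (red) libraries, with the replicate number beside each point, the mean and SD as a black bar, and axes that start at 0. The groups are apart for Fcgr1 and Fcgrt, nearly so for Pirb, and overlap for the other 5 members.

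Among the activating receptors, the 3 genes differed from each other in direction and in depth. Fcgr1, the high-affinity receptor that can hold monomeric IgG (ENSMUSG00000015947, chr3:96282909-96293969), was counted 181, 243 and 259 times in mTOR-/- M-MDSCs against 168, 202 and 203 times in WT. That was 17.8 ± 2.67 CPM against 13.4 ± 1.31 CPM (SD, n = 3 each), and the lowest mTOR-/- library, at 14.8 CPM, lay just above the highest WT library, at 14.5 CPM. This was a log2 fold change of 0.41 (SE 0.18, 95% interval 0.01 to 0.81), with an adjusted p of 0.230 in edgeR.

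Fcgr3, the low-affinity activating receptor for immune complexes (ENSMUSG00000059498, chr1:171051174-171064935), was the main activating receptor by reads. Libraries labelled mTOR-/- held 7542, 7837 and 6274 counts against 8095, 9806 and 10427 for WT, or 567 ± 75.2 CPM against 663 ± 83.9 CPM (SD, n = 3 each). WT replicate 1, at 575 CPM, lay below mTOR-/- replicates 1 and 2, so the groups overlapped. On the log2 scale the change was -0.23 (SE 0.13, 95% interval -0.52 to 0.07; edgeR adjusted p = 0.356), and it was -0.13 without mTOR-/- replicate 3 and -0.14 without WT replicate 3.

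Fcgr4, the activating receptor of intermediate affinity for IgG2a and IgG2b (ENSMUSG00000059089, chr1:171018920-171029761), was present at a trace. Its counts were 31, 36 and 22 for mTOR-/- against 19, 48 and 35 for WT, all above the limit of 3 counts. The means were 2.33 ± 0.574 CPM and 2.37 ± 0.970 CPM (SD, n = 3 each), and WT held both the lowest and the highest library. The log2 fold change of -0.03 (SE 0.48) had a 95% interval from -1.10 to 1.04, which holds changes of about 2-fold in both directions (edgeR adjusted p = 0.981).

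The inhibitory receptor Fcgr2b (ENSMUSG00000026656, chr1:170958617-170976547) had more counts than any other member. WT libraries gave 15780, 16714 and 14336 counts, and those labelled mTOR-/- gave 11415, 9224 and 13950. The mean was 903 ± 179 CPM in mTOR-/- and 1095 ± 64.7 CPM in WT (SD, n = 3 each). mTOR-/- replicates 1 and 2 lay below every WT library, while replicate 3, at 1067 CPM, lay above WT replicate 3, at 1021 CPM. The log2 fold change was -0.28 (SE 0.14, 95% interval -0.60 to 0.05; edgeR adjusted p = 0.304), and it was -0.42 without mTOR-/- replicate 3 (edgeR adjusted p = 0.104) and -0.14 without mTOR-/- replicate 2 (edgeR adjusted p = 0.460).

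Summed, Fcgr2b and Fcgr3 gave a log2 fold change of -0.26 (SE 0.10), with an unadjusted p of 0.0350 and an adjusted p of 0.201 in edgeR. Its SE was smaller than that of either gene, and the mTOR-/- library with the highest Fcgr2b, replicate 3, had the lowest Fcgr3. Whether reads were divided between the genes in the same way in each library was not tested.

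The balance of activating over inhibitory receptors was then compared within libraries, where it does not depend on library totals. The summed FPKM of Fcgr1, Fcgr3 and Fcgr4 divided by that of Fcgr2b gave 1.36, 1.76 and 0.941 for the mTOR-/- replicates against 1.04, 1.20 and 1.48 for WT. The means were 1.35 ± 0.410 and 1.24 ± 0.222 (SD, n = 3 each), and the mTOR-/- libraries held both the lowest and the highest value. The difference in log2 ratio was 0.09 with p = 0.8 in a two-sided exact permutation test, which cannot go below 0.1 with 3 libraries against 3. Whether activating or inhibitory receptors were the larger side depended on how length was handled. The mean ratios were 1.75 in mTOR-/- and 1.63 in WT with the longest coding transcripts, and 0.676 and 0.623 with CPM.

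Fcgr1 and Fcgr4 together made up only 1.70% to 3.31% of the summed FPKM of the 4 IgG receptors in any library, so this ratio was close to that of Fcgr3 to Fcgr2b alone. The Fcgr3 to Fcgr2b ratio differed by 0.07 on the log2 scale (exact permutation p = 0.9). With Fcgr3 left out, the ratio of Fcgr1 and Fcgr4 to Fcgr2b came to 0.0572, 0.0913 and 0.0573 for the mTOR-/- replicates against 0.0347, 0.0484 and 0.0511 for WT. Those groups did not overlap, and the log2 difference of 0.60 had the smallest exact permutation p the design allows, 0.1. For Fcgr4 to Fcgr2b the log2 difference was 0.33 (exact permutation p = 0.6), and it ranged from -0.05 without WT replicate 1 to 0.68 without mTOR-/- replicate 3.

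**Figure D3:**
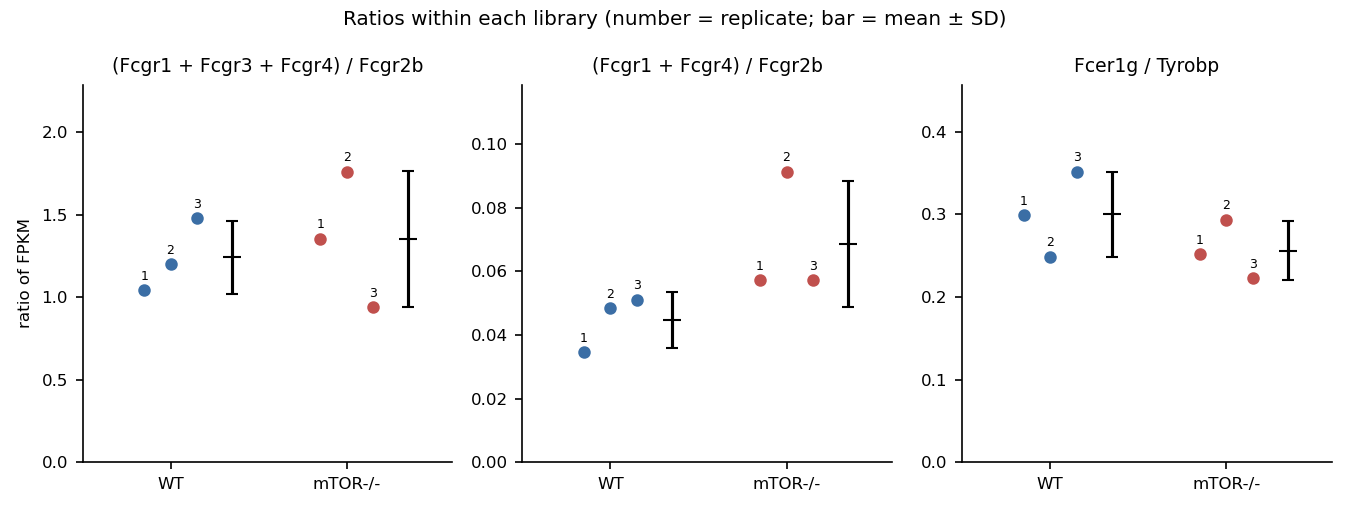
Ratios of FPKM within each of 3 WT (blue) and 3 mTOR-/- (red) libraries, numbered by replicate, with mean and SD as a black bar: all activating receptors to Fcgr2b, the same without Fcgr3, and Fcer1g to Tyrobp. The first and the last ratio overlap between groups, while the second lies between 0.0347 and 0.0511 in WT and between 0.0572 and 0.0913 in mTOR-/-.

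Of the adaptors, Fcer1g (ENSMUSG00000058715, chr1:171229572-171234365), the ITAM chain that the activating receptors need at the surface, gave 3396, 3847 and 2753 counts with the mTOR-/- label against 4188, 4370 and 4141 with the WT label. WT libraries were at 297 ± 1.87 CPM, while mTOR-/- libraries were at 261 ± 45.2 CPM (SD, n = 3 each) and replicate 3 was the lowest. The log2 fold change was -0.18 (SE 0.13, 95% interval -0.47 to 0.10; edgeR adjusted p = 0.434), and it was -0.06 without mTOR-/- replicate 3 and -0.30 without mTOR-/- replicate 2. Fcer1g is also the partner of the IgE receptor of mast cells and basophils. The summed level of 6 mast cell or basophil markers lay at 543 to 620 CPM for mTOR-/- against 1544 to 1627 CPM for WT, with 5 of the 6 lower past the test, and the part of such cells in the Fcer1g level was not tested. In these bulk libraries, fewer cells of a type and less RNA per cell cannot be told apart.

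Tyrobp, also called DAP12, is the ITAM adaptor of TREM and related receptors (ENSMUSG00000030579, chr7:30413788-30417577). WT libraries held 4919, 6177 and 4140 of its counts, and mTOR-/- ones 4740, 4607 and 4348. The groups had almost the same mean, 358 ± 26.9 CPM against 355 ± 63.7 CPM (SD, n = 3 each), and the mTOR-/- values lay inside the range of WT. Its log2 fold change was 0.01 with a 95% interval from -0.29 to 0.31 (edgeR adjusted p = 0.974). The Fcer1g to Tyrobp ratio was 0.256 ± 0.0356 in mTOR-/- and 0.300 ± 0.0514 in WT, a log2 difference of -0.22 (exact permutation p = 0.3).

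Fcgrt (ENSMUSG00000003420, chr7:45092993-45103822) had the largest fold change of the 8 members. The WT replicates held 18, 21 and 41 counts of it, and mTOR-/- replicates held 70, 99 and 62, that is 6.03 ± 1.48 CPM against 1.88 ± 0.906 CPM (SD, n = 3 each). Every mTOR-/- library was above every WT library, the nearest pair being 4.74 CPM in mTOR-/- and 2.92 CPM in WT. The fitted change was 3.20-fold (95% interval 1.66 to 6.18; log2 1.68, SE 0.42), with an unadjusted p of 0.00295.

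After adjustment, Fcgrt missed the threshold in edgeR (adjusted p = 0.0598) and passed it in DESeq2 (adjusted p = 0.00418). Over the 15 alternative settings its adjusted p ranged from 0.00418 to 0.193, and 5 of them were under 0.05. Its log2 fold change was positive in all of them. Leaving out any single library kept it between 1.46 and 2.14, and each of those 6 fits had an adjusted p above 0.05. Dendritic cell markers, 7 genes, summed to 193 to 264 CPM for mTOR-/- against 66.9 to 152 CPM for WT, with Ccr7 past the test and Siglech at 0. Most of that sum was Itgax, at a mean of 172 CPM in mTOR-/- and 90.7 CPM in WT (edgeR adjusted p = 0.0987). Zbtb46 was higher (log2 fold change 0.81) and Flt3 lower (-0.46), neither past the test. Cd209a had 0 to 5 counts a library and Xcr1 0 to 7. The part of dendritic cells in the Fcgrt level was not tested.

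Pirb, the paired Ig-like receptor with ITIM motifs that binds MHC class I (ENSMUSG00000058818, chr7:3711409-3720391), was counted 1056, 877 and 1320 times under the mTOR-/- label against 709, 998 and 875 times under WT. The means were 84.9 ± 16.7 CPM and 60.3 ± 9.06 CPM (SD, n = 3 each). mTOR-/- replicates 1 and 3 lay above all WT libraries, but replicate 2, at 67.7 CPM, lay just under WT replicate 2, at 68.2 CPM. In FPKM, which uses the library total without TMM, that order was reversed, at 8.90 for mTOR-/- replicate 2 and 8.80 for WT replicate 2. Whether the groups overlapped for Pirb therefore depended on the normalization. The log2 fold change was 0.49 (SE 0.17, 95% interval 0.12 to 0.87), the unadjusted p 0.0149 and the adjusted p 0.135 in edgeR and 0.0683 in DESeq2. Pirb has close relatives among the activating Pira genes, which makes its value uncertain by an amount that was not measured. Of the 150-base stretches of its annotated transcripts, 7.74% were shared exactly with Pira2 and 2.75% with Lilra6. Other Pira genes and nearly identical stretches were not compared. Pira2 itself had only 40 to 64 counts a library.

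**Figure D4:**
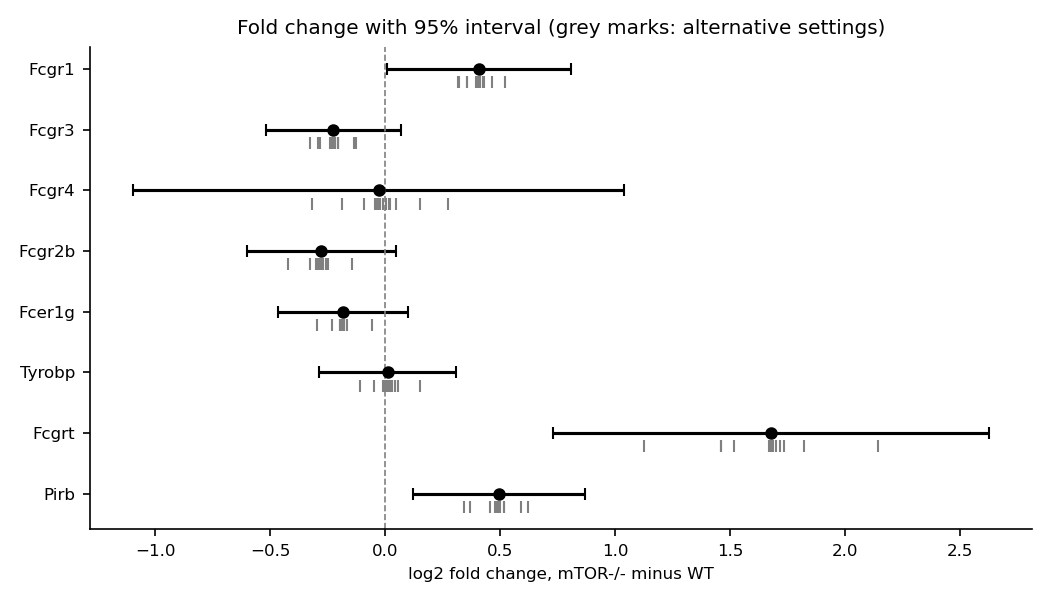
Log2 fold change of mTOR-/- minus WT for each member (black point) with its 95% interval (black line), and the value under each of 15 alternative settings (grey marks). Intervals of Fcgr1, Fcgrt and Pirb lie above 0 before adjustment over all genes, and Fcgr4 has the widest interval, -1.10 to 1.04.

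For Fcgr1 and Fcgrt, the members whose groups did not overlap, the 100 bases before the RefSeq start are shown (GRCm38.p6, minus strand for both). RefSeq held a promoter for 7 of the 8 members. Capitals mark TTCCTC, the reverse complement of GAGGAA, a purine-rich word of the kind that the myeloid factor PU.1 is known to bind.
Fcgr1, chr3:96293970-96294069: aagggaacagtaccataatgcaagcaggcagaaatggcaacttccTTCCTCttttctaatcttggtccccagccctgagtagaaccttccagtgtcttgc
Fcgrt, chr7:45103823-45103922: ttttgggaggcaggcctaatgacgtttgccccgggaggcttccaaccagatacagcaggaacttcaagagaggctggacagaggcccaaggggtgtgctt
Searched on both strands over the 250 bases before the start, the 6 letters were found in 4 of the 7 members (Fcgr1, Fcgr3, Fcgr4 and Pirb) and in 23.3% of 32851 promoters. The copy nearest to the start began 55 bases before it in Fcgr1, 22 in Fcgr4 and 87 in Pirb, and 6 or 15 in Fcgr3, which has a pair of starts. Members with and without the letters included both higher and lower fold changes.

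The signalling genes around these receptors were read from lists of known parts. Of 28 genes that carry the ITAM signal (Src-family kinases, Syk, Plcg2, Vav proteins and their adaptors), 0 passed the test in edgeR, 10 had an unadjusted p under 0.05 (21.2% of all tested genes did) and 3 passed with DESeq2 (9.12% of all tested genes). Their median log2 fold change was -0.06. Pik3ap1, or BCAP, which links receptors to PI3-kinase, was at 231 ± 22.6 CPM in mTOR-/- and 309 ± 19.9 CPM in WT (log2 fold change -0.42, edgeR adjusted p = 0.0558), and its groups did not overlap. Rac2, the GTPase of phagocyte actin and oxidase, was at 426 ± 50.1 and 462 ± 15.7 CPM (log2 fold change -0.12, edgeR adjusted p = 0.548).

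Of 15 effectors of ITIM receptors and other inhibitory signalling genes, 1 rose and 0 fell past the test, and their median log2 fold change was 0.07. The share past the test was 6.67%, against 4.04% of all tested genes. The gene that rose was Dok2, an adaptor that recruits RasGAP and dampens Ras signalling. Its 775, 740 and 782 counts under mTOR-/- stood against 533, 600 and 550 under WT, or 60.0 ± 3.02 against 39.3 ± 1.56 CPM (log2 fold change 0.61, SE 0.11, edgeR adjusted p = 0.0168), with no overlap. Dok3, at 80.3 ± 14.0 against 70.1 ± 6.01 CPM, and Csk, the kinase that holds Src-family kinases inactive, at 152 ± 10.9 against 170 ± 10.4 CPM, did not pass. Dok2 no longer passed when mTOR-/- replicate 1 or any of the WT libraries was left out, or with the replicate block (edgeR adjusted p 0.061 to 0.094).

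Receptors listed as pairing with Fcer1g or Tyrobp were measured next, with 27 of 31 listed symbols in the table and 20 tested. Of these 1 rose and 1 fell, or 10%, where 4.04% of all tested genes passed, and the median log2 fold change was 0.02. Clec5a, a C-type lectin that signals through Tyrobp, gave 1600, 1897 and 2003 counts from WT cells and 2580, 2503 and 2458 from mTOR-/- cells. It rose from 129 ± 14.5 CPM in WT to 197 ± 11.6 CPM in mTOR-/- (log2 fold change 0.62, SE 0.11, edgeR adjusted p = 0.0146), with the Tyrobp level at the same mean in both groups. Clec7a, the beta-glucan receptor Dectin-1, which carries a hemITAM of its own, fell from 131 ± 17.9 to 71.8 ± 17.1 CPM (log2 fold change -0.86, SE 0.17, edgeR adjusted p = 0.0262). Whether Clec7a uses either adaptor in these cells was not tested. Clec5a and Clec7a both had groups that did not overlap. Clec5a lost its call without mTOR-/- replicate 1, WT replicate 1 or WT replicate 2, and Clec7a without any library other than mTOR-/- replicate 1 (edgeR adjusted p 0.053 to 0.099).

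Among 20 ITIM-bearing receptors of myeloid cells other than Fcgr2b and Pirb, 1 fell and 0 rose, with a median log2 fold change of 0.17. The share past the test was 5%, near the 4.04% of all tested genes. Pecam1, or CD31, fell from 215 ± 10.9 CPM in WT to 137 ± 24.0 CPM in mTOR-/- (log2 fold change -0.65, SE 0.13, edgeR adjusted p = 0.0244). Lilrb4a, a relative of Pirb, was at 1538 ± 315 against 1261 ± 179 CPM (log2 fold change 0.29, edgeR adjusted p = 0.339) and Cd200r1, the receptor for CD200, at 505 ± 44.9 against 548 ± 10.3 CPM (log2 fold change -0.12, edgeR adjusted p = 0.520). With DESeq2, 4 of the 20 passed, beside 9.12% of all tested genes. The call on Pecam1 was lost without mTOR-/- replicate 1 or any of the WT libraries (edgeR adjusted p 0.074 to 0.110).

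Other Fc receptor genes were mostly below the filter: 5 of 14 were tested, 4 had no count in any library, and 0 passed in edgeR or DESeq2 or at an unadjusted p under 0.05. Their median log2 fold change was 0.36. Fcrlb, an intracellular relative of the IgG receptors, was at 19.1 ± 7.75 CPM in mTOR-/- and 25.7 ± 3.81 CPM in WT, and Trim21, a cytosolic IgG receptor and ubiquitin ligase, at 14.9 ± 2.48 and 11.6 ± 1.25 CPM. The mast cell chains of the IgE receptor that assemble with Fcer1g were low, with 28 to 63 counts of Fcer1a and 52 to 264 counts of Ms4a2 over the 6 libraries, and neither passed the test. These last 2 genes were named after their values were seen.

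**Figure D5:**
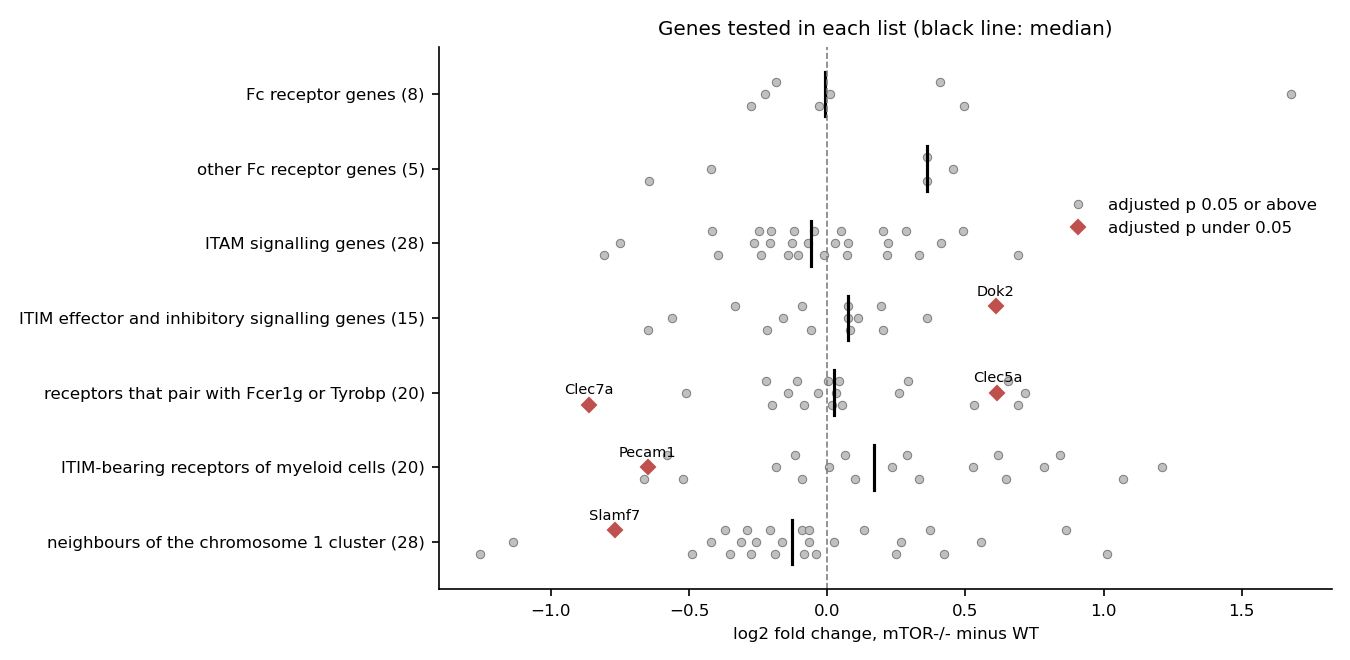
Log2 fold change of mTOR-/- minus WT of the tested genes in each list, with the number tested in parentheses, the median as a black line, and genes with an edgeR adjusted p under 0.05 as red diamonds with their names. No Fc receptor gene is among the called genes, and Dok2, Clec5a, Clec7a, Pecam1 and Slamf7 are.

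Fcgr2b, Fcgr4, Fcgr3 and Fcer1g lie within 275.7 kilobases of chromosome 1. Of 47 other genes within 500000 bases on either side of them, 28 were tested, 1 fell and 0 rose, with a median log2 fold change of -0.13. That 1 gene was 3.57% of those tested, near the 4.04% of all tested genes. Slamf7, a receptor of the SLAM family 398 kilobases from Fcer1g, gave 1135, 1312 and 1253 counts from WT cells and 672, 641 and 629 from mTOR-/- cells. It fell from 86.5 ± 5.06 to 50.8 ± 3.51 CPM (log2 fold change -0.77, SE 0.11, edgeR adjusted p = 0.00523) and passed in each of the 15 alternative settings.

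The labelled cell type was checked against its markers. Of 7 monocyte markers, Itgam and Csf1r were abundant in every library. Ccr2 was low, with 95 to 199 counts a library (0.481 to 1.10 FPKM), and Cx3cr1 was nearly absent, with 0 to 4 counts. The 7 markers summed to 2755 to 3701 CPM for mTOR-/- against 4136 to 5810 CPM for WT. Without Lyz2, the site of the Cre, the other 6 summed to 1853 to 2728 against 1809 to 1906 CPM, a comparison chosen after the values were seen. Single markers differed, with Ly6c2 and Lyz2 lower and Csf1r and Csf2ra higher past the test. The 9 neutrophil markers summed to 2369 to 2698 CPM in mTOR-/- and 2105 to 2429 CPM in WT, with Ly6g and S100a8 higher and Ltf and Ngp lower, although sorting used Ly6G. Macrophage markers, 8 genes, summed to 546 to 664 CPM in mTOR-/- and 663 to 743 CPM in WT with 0 past the test, and 4 eosinophil markers to 39.6 to 64.1 and 93.4 to 110 CPM, with Prg2 lower and Il5ra under the limit of detection. Markers of B cells, which also express Fcgr2b, summed to 3.32 to 6.93 and 2.27 to 3.21 CPM, and T or NK cell markers to 0.734 to 4.17 and 2.80 to 4.69 CPM, with Cd3e, Cd8a and Ncr1 at 0. The part of the cell types whose markers differed in the Fc receptor levels was not tested.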

How the data were processed

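Sorted M-MDSCs were profiled by paired-end RNAseq, 3 mTOR-/- and 3 WT libraries. The authors deposited raw counts per gene and FPKM. The study's methods name Bowtie2 and HTSeq on mm10, whereas the submitters' processing notes name HISAT2 2.0.4 and StringTie 1.3.0 with GRCm38.p4 and mm9; the files do not settle which. Each deposited FPKM equals the count divided by 1 fixed gene length and the library total, so FPKM adds only the length. Strand use was not given. Coordinates are those of the deposited table, where 6 of the 8 members have the same start and end as in GENCODE M21 (GRCm38) and the other 2 differ by at most 29 bases. Another 24 per-sample columns repeating these values, and the authors' own fold changes and p-values, were not used.

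Counts were tested with edgeR 4.0.16 in R 4.3.3 (filterByExpr, TMM, quasi-likelihood F test, Benjamini-Hochberg, adjusted p under 0.05), tested on simulated data first. DESeq2 1.42.0 and limma 3.58.1 on log2(FPKM + 1) and log2(FPKM + 0.1), other normalizations and filters, leaving out each library, and a replicate block were alternatives. The scaling of FPKM by transcript lengths (GENCODE M21) was added after seeing the data. Ratios used two-sided exact permutation tests (scipy 1.17.1). Intervals and the limit of 3 counts cover these libraries or counting error only. Promoters came from RefSeq (GRCm38.p6). Members and lists were chosen with earlier results of these data known. All 8 members were described. Of each list the text names genes past the test, at most 5 by size, with the 2 highest by mean FPKM where fewer than 2 passed, and of the chromosome 1 neighbours only those past the test. Of the list symbols, Pira1, Pira6, Pira7 and Pira11 had no row.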

Additional observations from a re-analysis of the deposited data

How the results depend on the processing

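Members past the test numbered 0 as reported and 1, Fcgrt, with DESeq2, with no filter on low counts, with at least 10 counts in every library and with limma on log2(FPKM + 1) or log2(FPKM + 0.1), where its log2 fold change was 1.68, 1.67, 1.67, 1.13 and 1.67 (adjusted p 0.00418, 0.0345, 0.0432, 0.0299 and 0.0362). The 2 members that did not overlap became 2 to 4 when single libraries were left out, where 34.2% to 43.3% of all genes did not overlap, against 28.4% with all libraries. With all libraries kept, they became 3 with upper-quartile normalization or library totals alone, where 28.4% of all genes did not overlap. All genes past the test numbered 507, 1144 with DESeq2 and 173 to 513 without single libraries. ITAM signalling genes past the test numbered 3 with DESeq2 or no filter, 1 with at least 10 counts in every library and 0 to 1 without single libraries. ITIM effectors numbered 0 to 1 and receptors listed as pairing with Fcer1g or Tyrobp 0 to 1 without single libraries. ITIM-bearing receptors numbered 4 with DESeq2, 2 with upper-quartile normalization, library totals alone, no filter or at least 10 counts, and 0 to 2 without single libraries. The cause of these moves was not tested.

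The direction was not settled for 2 members near 0. Fcgr4, at -0.03 on the log2 scale, was 0.0188 with limma on log2(FPKM + 1), 0.0462 on log2(FPKM + 0.1), and -0.32 to 0.27 without single libraries (0.15 without mTOR-/- replicate 3, 0.27 without WT replicate 2, 0.01 without WT replicate 3). Tyrobp, at 0.01, was -0.0033 with no filter, and -0.11 to 0.15 without single libraries (-0.05 without mTOR-/- replicate 1, -0.01 without WT replicate 1, -0.11 without WT replicate 3). The ratio of activating receptors to Fcgr2b moved from 0.09 to 0.60 on the log2 scale when Fcgr3 was left out, and lay between -0.12 and 0.33 without single libraries, where the Fcgr4 to Fcgr2b ratio lay between -0.05 and 0.68.

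Libraries with the same number did not deviate together (correlations of -0.08 to -0.03, and no library correlated best with its own number), so the numbers gave no sign of pairing. These values cannot tell whether libraries with the same number shared a preparation. With a replicate block, 279 genes passed, members past the test stayed at 0 (Fcgrt log2 1.74, adjusted p 0.123), ITIM effectors numbered 0 and Fcgr4 was at 0.0177. Fcgr4 and Fcgrt had the fewest counts, 18 to 99 a library.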
